A study of Dichomitus squalens with 6 samples.

Results

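Gene expression of the white-rot fungus Dichomitus squalens was compared between mycelium given xylose and mycelium given cellobiose, using the 2 xylose and the 2 cellobiose libraries, 4 of the 6 libraries of the series. The libraries were chosen by the sugar in their labels. The remaining 2 libraries, from L-rhamnose, served to estimate the spread between replicates and are given as levels for reference. All libraries came from the wild-type monokaryotic strain CBS 464.89, kept at 28 °C on low-nitrogen agar with asparagine and succinate, and the mycelium was taken after 5 days. Every plate carried 25 mM of its sugar, so asparagine and succinate were shared by both groups and no plate without a sugar was analysed here. Cellobiose is a disaccharide of glucose, so equal molarity gave cellobiose plates more hexose units than xylose plates gave pentose units. No label says whether the 2 replicates of a sugar came from separate cultures, and p-values therefore measure the spread between libraries alone, and this spread may be technical.

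White-rot fungi break down cellulose, hemicellulose and lignin in wood. Cellobiose is the main soluble product of cellulose breakdown and is split to glucose, which enters glycolysis. Xylose is the backbone sugar of xylan, and in fungi it is reduced to xylitol, oxidised to xylulose and phosphorylated before it joins the pentose phosphate pathway. The series was set up to look for candidate regulators of plant biomass breakdown through the response to such simple carbon sources. All 15295 gene models carry a protein number in the deposited identifier table, and these numbers were the same as in the deposited gene models in all 15295 cases. The files do not pair models or protein numbers with product names, so no enzyme, transporter or pathway is named below, and genes are described by structure, position and level.

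Xylose and cellobiose gave different transcript levels for 533 of 12667 tested genes, 4.21% of them (edgeR's quasi-likelihood test, Benjamini-Hochberg adjusted p under 0.05). Of these, 210 were higher on xylose (1.66% of tested genes) and 323 were lower (2.55%). At least a 2-fold change was found for 195 of the higher genes (1.54% of tested genes) and 308 of the lower genes (2.43%). The smallest called log2 fold changes were 0.72 and -0.77. A test on 2 libraries per sugar favours large changes, so the sizes of called changes partly reflect the selection. Among called genes, at least a 4-fold change was found for 68 higher and 166 lower genes. At least a 16-fold change was found for 8 higher and 37 lower genes. A further 69 higher and 65 lower of the 12667 tested genes reached a fitted 4-fold change and were not called. Xylose replicates were at least 2-fold apart for 56 of those 69 and 14 of those 65. The median log2 fold change was 1.68 among the higher genes and -2.06 among the lower genes. These genes were selected by this same fold change, so the direction of both medians was fixed in advance. Over all tested genes the median was 0.01, with 25th and 75th percentiles of -0.32 and 0.3.

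Genes lower on xylose had a median of 48.7 FPKM on cellobiose and 9.77 FPKM on xylose. Genes with reads had a median of 18 FPKM in each xylose library. With no plate without a sugar, lower on xylose and raised on cellobiose cannot be told apart. FPKM is the authors' count scaled to library size and to a length somewhat below the coding length. The same genes had a median of 30.7 FPKM on L-rhamnose. Genes higher on xylose had a median of 113 FPKM on xylose, 37.6 FPKM on cellobiose and 40.4 FPKM on L-rhamnose. A level of at least 1000 FPKM on the sugar with more transcript was reached by 16 genes of the higher and 11 genes of the lower kind. For 2 of the lower genes the 2 xylose libraries together held at most 3 counts, and for none of the higher genes did the 2 cellobiose libraries do so.

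**Figure D1:**
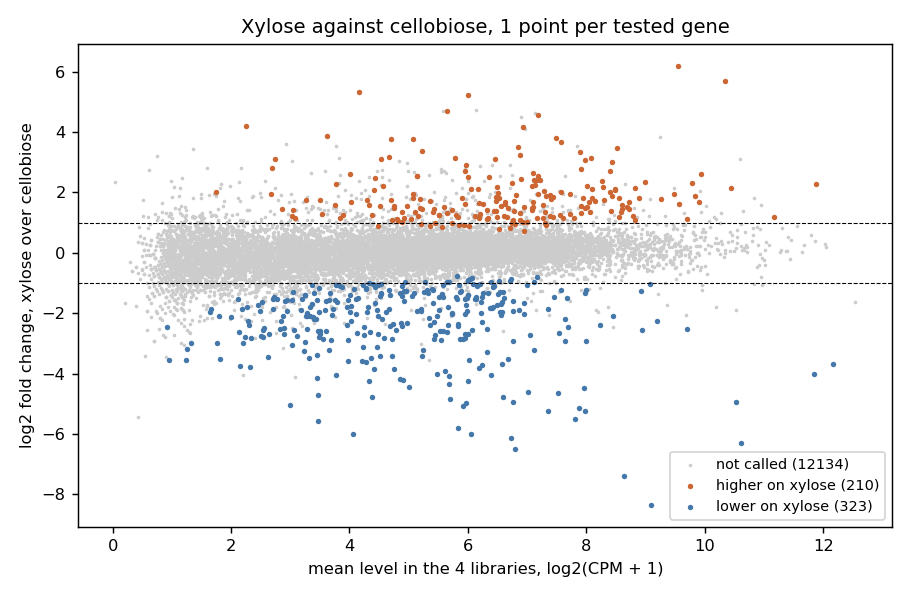
Fitted log2 fold change of xylose over cellobiose (vertical axis) against the mean level in the 4 libraries (horizontal axis, log2(CPM + 1)), with 1 point for each of the 12667 tested genes. The 210 higher genes are in orange, the 323 lower genes in blue, the dashed lines mark a 2-fold change, and the lower genes reach -8.35 where the higher genes reach 6.19.

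The count of changed genes depended on which libraries entered the fit, for a cause that was not tested. It was 191 with only the 4 xylose and cellobiose libraries. It was 148 without cellobiose replicate 1 and 214 without cellobiose replicate 2. Leaving out xylose replicate 1 or 2 gave 791 or 1035 genes, and leaving out L-rhamnose replicate 1 or 2 gave 186 or 182. DESeq2 called 1091 genes (8.61%), 533 higher (4.21%) and 558 lower (4.41%), and so gave a nearly even split where edgeR gave 39.4% higher. With library sizes only and no TMM factors, 28.9% of edgeR's calls were higher, and the median log2 value over all tested genes moved to -0.12. None of the 533 genes changed sign in any of the 14 alternative fits in which it was tested. The 2 sugars did not overlap in scaled counts for any called gene, so this outcome was largely fixed in advance and is no support.

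The deposited FPKM values were tested as a second readout of the same libraries. On log2(FPKM + 1), limma called 485 of 13815 genes (3.51%), 136 higher (0.984%) and 349 lower (2.53%) on xylose. Of the genes lower by edgeR, 302 were also lower by limma, which is 93.5% of edgeR's and 86.5% of limma's lower genes. Of the genes higher by edgeR, 133 were also higher by limma, which is 63.3% of edgeR's and 97.8% of limma's higher genes. Both tests use the same reads, so the shared calls are no independent support.

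The called genes held a sizeable part of the measured transcripts. The genes higher on xylose took 1.44% and 1.66% of all FPKM in the cellobiose libraries and 6.06% and 6.62% in the xylose libraries. The genes lower on xylose took 8.01% and 8.78% in the cellobiose libraries and 0.792% and 1.2% in the xylose libraries. Much of the lower share came from 3 genes of like structure described further on, which held 3.56% and 4.23% on cellobiose and 0.0781% and 0.406% on xylose and lost their calls in several alternatives. The other 320 lower genes took 4.45% and 4.55% on cellobiose and 0.714% and 0.791% on xylose. On L-rhamnose, the higher genes took 2.56% and 2.73% and the lower genes 8.93% and 9.3%. These shares describe the size of the change and carry no test, since the genes were selected by the same contrast. In bulk mycelium, fewer cells or hyphae of one kind and less RNA per cell cannot be told apart.

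**Figure D2:**
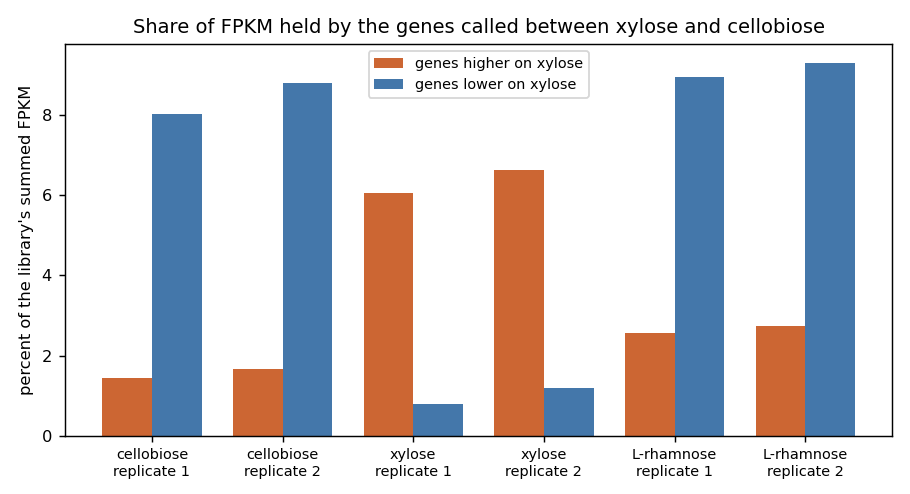
Percent of each library's summed FPKM (vertical axis) held by the 210 genes higher on xylose (orange) and the 323 genes lower on xylose (blue), with 1 pair of bars for each of the 6 libraries. The blue bars stand between 8.01% and 9.3% on cellobiose and L-rhamnose and at 0.792% and 1.2% on xylose.

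The gene higher on xylose with the greatest difference in mean FPKM, among genes whose reads were not divided with similar genes, was gene_11302 (protein number 927617). It has 3 exons and 528 coding bases and lies on scaffold 44 from 99782 to 100600, minus strand. It stood at 4930.3 and 3431 FPKM in the xylose libraries, 737 and 1306 FPKM in the cellobiose libraries, and 36.9 and 29.5 FPKM in the L-rhamnose libraries. Both xylose libraries lay above both cellobiose libraries, and both L-rhamnose libraries lay far below either. The means were 4181 ± 1060.1 FPKM on xylose and 1021 ± 403 FPKM on cellobiose (SD, n = 2). In the fit, xylose exceeded cellobiose by 2.16 ± 0.35 on the log2 scale (SE, edgeR adjusted p = 0.0193). The call was lost in 4 of 14 alternatives, among them the fit without cellobiose replicate 1 (log2 fold change 1.8, edgeR adjusted p = 0.115), and the adjusted p ranged from 9.12e-08 to 0.115. The others were the fit of only the 4 libraries (0.0789) and those lacking L-rhamnose replicate 1 (0.075) or 2 (0.0762).

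Next was gene_14622 (protein number 934647), with 7 exons and 1503 coding bases on scaffold 94 from 92771 to 95714, plus strand. It stood at 4366 and 3294 FPKM on xylose, 842 and 889 FPKM on cellobiose, and 1821 and 2206 FPKM on L-rhamnose. The cellobiose libraries were the lowest and close to each other, and no groups overlapped. The means were 3830.2 ± 758 FPKM on xylose and 865 ± 33.8 FPKM on cellobiose (SD, n = 2). The fitted difference was 2.27 ± 0.29 on the log2 scale (SE, edgeR adjusted p = 0.00986). The call was lost without cellobiose replicate 1 (edgeR adjusted p = 0.0951) and without cellobiose replicate 2 (0.0691), where the log2 fold change was 2.23 and 2.31.

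Among the genes lower on xylose, by the same rule, gene_14140 (protein number 932312) differed most in mean FPKM. It has 8 exons and 471 coding bases and lies on scaffold 75 from 141774 to 142900, minus strand. It stood at 67.1 and 328 FPKM on xylose, 3226 and 9766 FPKM on cellobiose, and 3430.1 and 4366 FPKM on L-rhamnose. Replicates differed widely on both sugars, and the xylose libraries still lay below every other library. The log2 fold change was -4.93 ± 0.87 (SE, n = 2 per sugar, edgeR adjusted p = 0.0266). The call was lost in 5 of 14 alternatives, with a highest edgeR adjusted p of 0.0948 and a log2 fold change from -6.47 to -3.92. The adjusted p was 0.0947 in the fit of only the 4 libraries. It was 0.0524 and 0.0808 when cellobiose replicate 1 or 2 was left out, and 0.0933 and 0.0948 when L-rhamnose replicate 1 or 2 was.

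The next of the lower genes was gene_7552 (protein number 847551), on scaffold 21 from 269421 to 270086, plus strand. Its 348 coding bases lie in 1 of its 3 exons, and 48 and 141 bases are annotated as 5′ and 3′ UTR. It had 7982 and 9601 counts on cellobiose, 23 and 27 counts on xylose, and 5152 and 2900 counts on L-rhamnose. Replicates were close on both sugars compared, and the xylose libraries stood apart from the other 4. At -8.35 ± 0.43 (SE, edgeR adjusted p = 0.000601), its log2 fold change was the lowest among the called genes, and it was called in all 14 alternatives, with log2 values from -8.48 to -8.2.

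**Figure D3:**
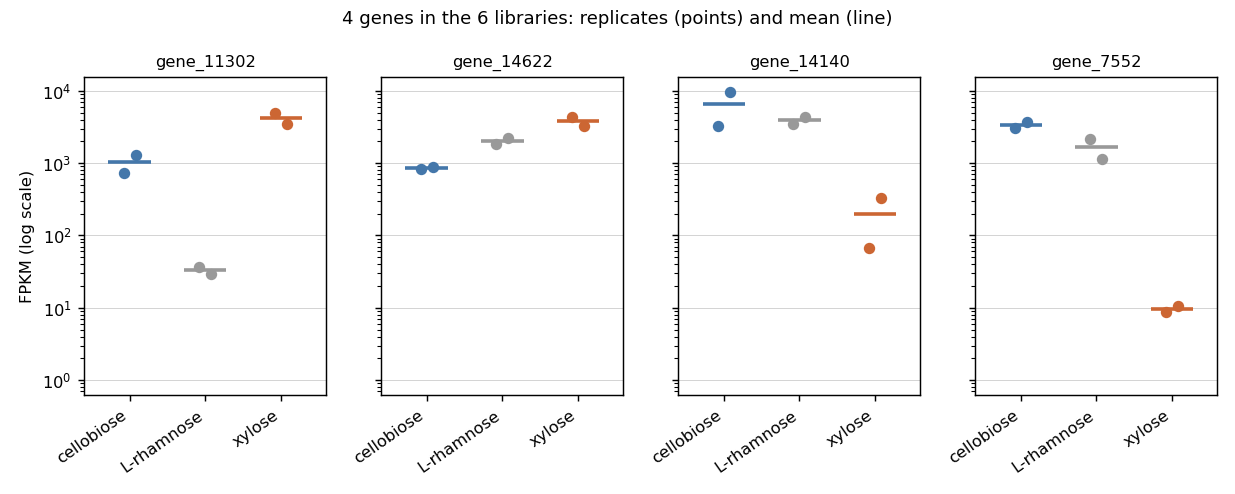
FPKM on a log scale (vertical axis) of gene_11302, gene_14622, gene_14140 and gene_7552 in the 2 libraries of each sugar (points), with the mean as a line. The first and second are higher on xylose than on cellobiose, the other two are lower, and gene_7552 falls from 3075 and 3748 FPKM on cellobiose to 8.75 and 10.4 FPKM on xylose.

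Of the 3 models on each side of each of these 4 genes, 24 in all, 20 were tested and 2 were called, both higher on xylose. This is 10% of the tested neighbours, beside 4.21% of all tested genes, and rests on 2 genes. The others had log2 fold changes from -1.02 to 0.94. One called neighbour lies head to head with gene_11302 across a gap of 113 bases, on scaffold 44 from 100714 to 101676, plus strand. It stood at 14.1 and 14.2 FPKM on xylose and 5.44 and 5.83 FPKM on cellobiose, a log2 difference of 1.44 ± 0.28 (edgeR adjusted p = 0.0402). Part of its reads were divided with a similar gene. The other called neighbour, at 100981 to 102528 on scaffold 94 and 5266 bases from gene_14622, stood at 39.1 and 38 FPKM on xylose and 17.1 and 22.4 FPKM on cellobiose, a difference of 1.09 ± 0.21 on the log2 scale (edgeR adjusted p = 0.0395).

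The model gene_14140 belongs to a set of models with nearly the same exon structure, whose members changed in opposite directions. The coding sequence of these models is cut into 8 parts, of 31, 48, 15, 144, 100, 23, 22 and 94 bases in 2 of them. Among 682 models with 8 coding parts, 11 had at least 5 of these 8 lengths and 0 had 3 or 4 of them. The set was put together after the values of its members had been seen, so its counts are a description with no test. It lies on scaffolds 75 (4 models), 99 (2), 112 (1), 120 (3) and 283 (1). Of the 11 models, 10 were tested, 2 were called higher on xylose and 3 lower, beside 1.66% and 2.55% of all tested genes, and nothing is read from these counts since the values chose the set. Of the 11, 7 had counts that were not whole, so that RSEM divided reads among similar genes and their levels are uncertain.

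Both models called higher lie on scaffold 99. The one at 21817 to 23314 stood at 2646 and 3143 FPKM on xylose, 42.4 and 43.5 FPKM on cellobiose and 91.9 and 70.1 FPKM on L-rhamnose. A short model on the opposite strand overlaps its start, and reads of the pair cannot be told apart if counting ignored strand. The one at 37192 to 38344 stood at 2909 and 7263 FPKM on xylose, 81.5 and 130 FPKM on cellobiose and 354 and 187 FPKM on L-rhamnose. Both share reads with similar genes, and both stayed called in all 13 alternatives in which they were tested, with log2 fold changes from 6.07 to 6.3 and from 4.91 to 6.21. Coding part 4 of these models has 156 and 153 bases and coding part 5 has 103, where the other 9 models have 144 or 147 and 100 or 112.

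The 3 models called lower are gene_14140 and 2 models on scaffold 120. The model at 47566 to 48744 went from 14612.5 and 16409 FPKM on cellobiose to 244 and 1551 FPKM on xylose (log2 fold change -4.0 ± 0.79, edgeR adjusted p = 0.0402), and stood at 7635 and 9234 FPKM on L-rhamnose. The model at 61510 to 63026 went from 19686 and 18369 FPKM on cellobiose to 459 and 2291 FPKM on xylose (log2 fold change -3.68 ± 0.71, edgeR adjusted p = 0.0376), and stood at 22103 and 28786 FPKM on L-rhamnose. In both, xylose replicate 2 was several times higher than xylose replicate 1. Both share reads with similar genes, and each lost its call in 5 of 13 alternatives, with highest edgeR adjusted p of 0.143 and 0.152 and log2 fold changes from -5.86 to -3.22 and from -5.25 to -2.95. The 5 were the fit of only the 4 libraries and those lacking either cellobiose or either L-rhamnose library, with adjusted p from 0.113 to 0.143 for the first model and from 0.105 to 0.152 for the second.

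A further abundant model of the set, at 128772 to 130159 on scaffold 75, was not called. It stood at 6495 and 3836 FPKM on cellobiose, 537 and 2021 FPKM on xylose and 20349 and 24082 FPKM on L-rhamnose (log2 fold change -1.9 ± 0.6, edgeR adjusted p = 0.14). The model on scaffold 112 was high in a single library, at 315 FPKM in cellobiose replicate 2 and between 2.68 and 16.4 FPKM in the other 5. The remaining 4 models stood below 80 FPKM in every library. Summed over the 9 models outside scaffold 99, the set held 4.18% and 4.63% of all FPKM on cellobiose and 0.137% and 0.607% on xylose. The sums over the 2 models of scaffold 99 were 0.0117% and 0.0165% on cellobiose and 0.563% and 1.01% on xylose. All members together took 4.19% and 4.65% of FPKM on cellobiose, 0.7% and 1.62% on xylose, and 4.86% and 6.14% on L-rhamnose. This last sum depends little on how reads were divided within the set, whose coding lengths run from 465 to 495 bases. Whether reads were also divided with genes outside the set was not tested.

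**Figure D4:**
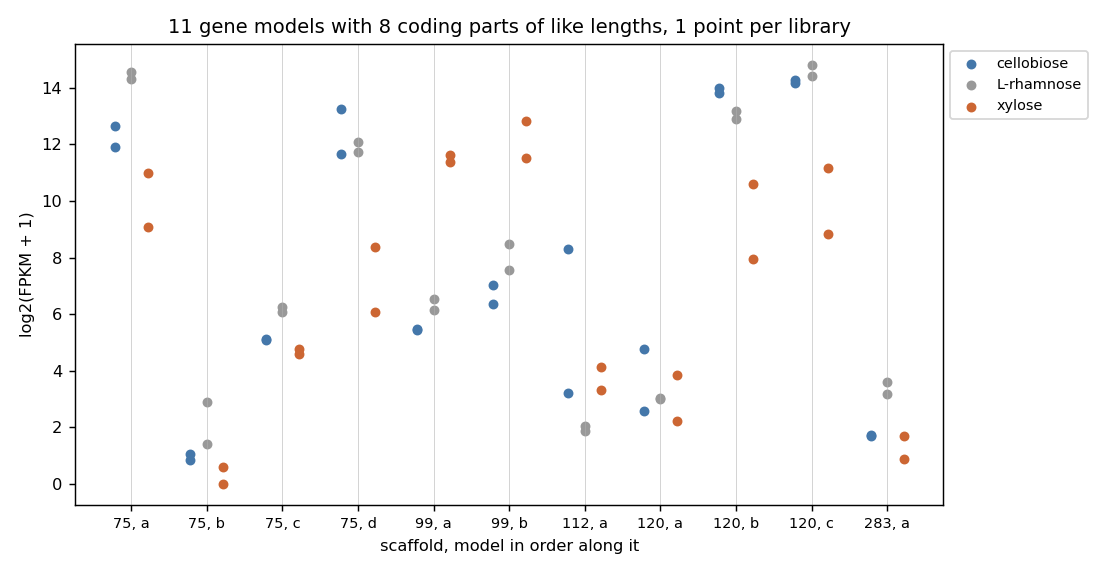
Level of the 11 models with 8 coding parts of like lengths (vertical axis, log2(FPKM + 1)), with 1 point for each of the 6 libraries, coloured by sugar. Models are ordered by scaffold and by position along it, and the 2 models of scaffold 99 have their highest points on xylose, where those at 141774 on scaffold 75 (last of 4) and at 47566 and 61510 on scaffold 120 (last 2 of 3) have their lowest.

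Over all models, 85 sets, 184 models in all, shared the length of every coding part and had at least 4 parts. No member was called in 69 of these sets, and a called gene was found in 16, among them the pair with all 8 lengths given above. Of all tested genes, 4.21% were called. A set has more chances to hold a called gene than a single model has, so nothing is read from the count of 16. In 13 of the 16 some tested members were called and others were not, in 1 only a single member was tested, in 2 every tested member was called in the same direction, and in 0 were members called in both directions. One of the 2 sets is a pair of neighbours at 1766 to 2999 and 4167 to 5492 on scaffold 49, both on the minus strand. The first went from 9.59 and 13.9 FPKM on cellobiose to 1.86 and 1.2 FPKM on xylose, and the second from 28.9 and 72.9 FPKM to 3.55 and 1.38 FPKM, with log2 fold changes of -2.8 ± 0.37 and -4.23 ± 0.61 (edgeR adjusted p = 0.0106 and 0.0132). The other set lies on scaffolds 9 and 75. Its model at 117854 to 119001 on scaffold 9 went from 99.7 and 80.3 FPKM on cellobiose to 4.38 and 3.15 FPKM on xylose, and its model at 62830 to 63711 on scaffold 75 went from 42.3 and 78.2 FPKM to 6.75 and 3.52 FPKM (log2 fold change -4.45 ± 0.26 and -3.42 ± 0.44, edgeR adjusted p = 0.000845 and 0.00986). All 4 of these models had whole counts in every library.

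A pair of models on scaffold 100, at 98596 to 99666 on the minus strand and 103152 to 104222 on the plus strand, had equal counts in every library. Each stood at 80.3 and 37.6 FPKM on xylose, 11.4 and 10.9 FPKM on cellobiose and 7.91 and 12.9 FPKM on L-rhamnose. Each was called higher on xylose (log2 fold change 2.53 ± 0.42, edgeR adjusted p = 0.0211). With equal values in all 6 libraries, the counts cannot show which copy the reads came from, and the pair is a single measurement counted as 2 of the 210 higher genes.

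Shares of called genes were set out by structure and level as a description, with no test of the differences between classes. Among models with 1 exon, 0.62% were called higher and 2.38% lower, against 1.66% and 2.55% of all tested genes. The share called higher was 1.27% with 2 to 5 exons, 2.09% with 6 to 10 exons and 2.98% with over 10 exons. The share called lower stayed nearer to that of all genes, at 2.34%, 2.67% and 3.29% in these classes. The median lower gene had 5 exons and 987 coding bases and the median higher gene 6 exons and 1113, beside 5 exons and 1056 coding bases over all tested genes. Among models with under 450 coding bases, 14 of 1913 were called higher (0.732%) and 60 lower (3.14%). With 1500 coding bases and more, the shares were 1.78% and 1.91%. Models that share reads had 1.79% higher and 3.58% lower, against 1.65% and 2.46% of models with whole counts. Models with an annotated UTR had 1.61% higher and 2.44% lower, close to the 1.77% and 2.79% of models without one.

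By level, of 2461 genes with a mean of 100 CPM (counts scaled to a common library total) and more over the 4 libraries, 4.27% were higher on xylose and 1.95% lower. Between 10 and 99 CPM the shares were 1.48% and 3.15%, and under 10 CPM they were 0.263% and 1.92%. The share called lower was thus nearly equal in the lowest and the highest class. The median log2 fold change of all tested genes also moved with level, from -0.18 under 10 CPM to 0.02 between 10 and 99 CPM and 0.15 at 100 CPM and more. Its part in the shares was not tested, and the level classes come from the same 4 libraries as the contrast. The classes of exon number also differed in level, with medians on cellobiose of 10.4 FPKM for 1 exon, 22.7 FPKM for 2 to 5, 31.8 FPKM for 6 to 10 and 25.7 FPKM for over 10, and the part of level in the shares was not tested. DESeq2 called more genes in every class and gave the same order of classes by level for higher genes, with 10.2%, 4.01% and 0.685%, and the same order by exon number, from 1.55% with 1 exon to 6.84% with over 10.

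**Figure D5:**
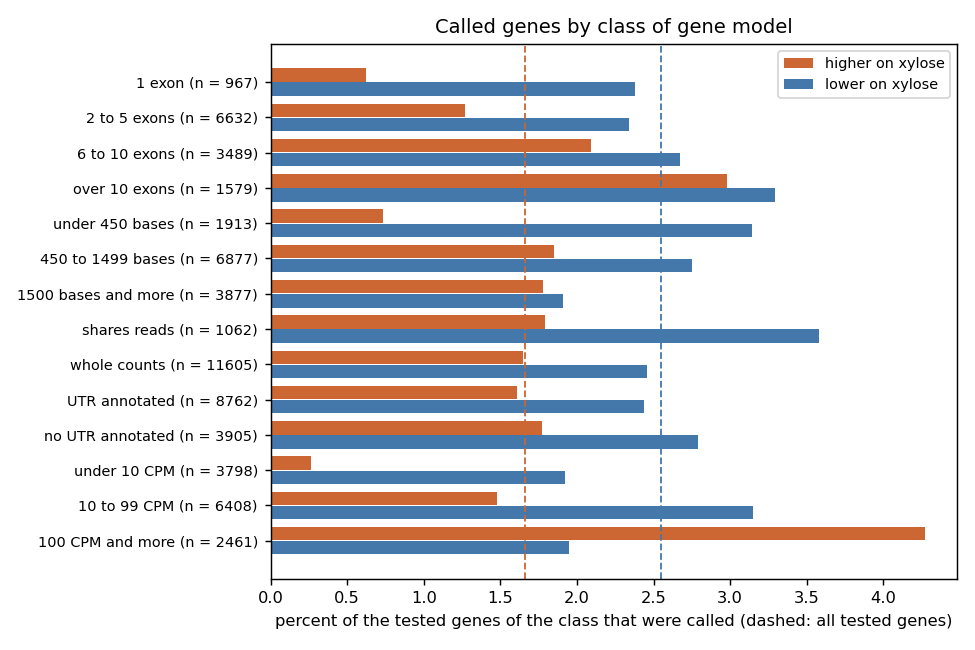
Percent of tested genes called higher (orange) or lower (blue) on xylose (horizontal axis) in 14 classes of gene models by exon number, coding length, divided reads, annotated UTR and mean level, with the number tested. Dashed lines mark the 1.66% and 2.55% of all tested genes, and the class of 100 CPM and more stands at 4.27% higher and 1.95% lower.

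Neighbouring genes were called in the same direction in 40 of the 11043 adjacent pairs of tested genes. Whether this is more than the shares of called genes alone would give, 1.66% higher and 2.55% lower among tested genes, was not tested. Adjacent models that overlap or share reads were counted as separate genes. Both genes were higher in 9 pairs, both were lower in 31, and in 6 further pairs the calls were opposite. Of the 31 pairs of lower genes, 18 lay on the same strand, 5 head to head and 8 tail to tail, which is 58.1%, 16.1% and 25.8%, beside 47.6%, 25.5% and 26.8% of all 11043 pairs of tested neighbours. Of the 9 pairs of higher genes, 6 lay on the same strand, 3 head to head and 0 tail to tail. Counting only called models with at least a 2-fold change, runs of 3 consecutive lower models lay on scaffolds 40, 76 and 103. On scaffold 40 the run spans 151154 to 159826, on alternating strands. The first, of 11 exons, had 73.7 and 74.9 FPKM on cellobiose against 19.5 and 19.5 FPKM on xylose. The middle one, of 6 exons, had 25.4 and 22.1 FPKM on cellobiose and 6.42 and 5.62 FPKM on xylose, and the last, of 16 exons, at 124 and 137 FPKM on cellobiose and 20.4 and 43.1 FPKM on xylose. Their log2 fold changes were close to each other, at -1.81 ± 0.19, -1.85 ± 0.28 and -1.92 ± 0.33 (edgeR adjusted p = 0.00536, 0.0158 and 0.0243), and the models had whole counts. Log2 fold changes ran from -1.96 to -1.63 in the run on scaffold 76 and, further apart, from -4.03 to -2.01 in that on scaffold 103. In the latter, the models at 78628 to 79309 and 79076 to 79860 overlap on the plus strand. Whether they are separate transcripts was not tested.

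The xylose libraries differed more from each other than replicates of the other sugars did. On log2(CPM + 1), replicates of xylose were at least 2-fold apart for 904 of 12667 tested genes, those of cellobiose for 342 and those of L-rhamnose for 165. In xylose replicate 1, 12 genes were at least 8-fold above all 5 other libraries, against 1 gene in cellobiose replicate 2 and 0 in each of the other 4 libraries.

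These 12 genes lay on 11 scaffolds, and 0 were next to each other. Their median level was 210 FPKM in xylose replicate 1, 6.01 FPKM in xylose replicate 2 and 7.22 FPKM on cellobiose. One of them, at 86738 to 89266 on scaffold 79, stood at 389 FPKM in xylose replicate 1, 6.99 FPKM in xylose replicate 2 and 8.05 and 9.67 FPKM on cellobiose. Another, at 55532 to 56619 on scaffold 163, stood at 362 and 6.61 FPKM on xylose and 8.78 and 6.67 FPKM on cellobiose. Xylose replicate 2 was thus at the level of cellobiose in both. Fitted log2 fold changes of 4.62 ± 1.47 and 4.71 ± 1.49 (edgeR adjusted p = 0.145 and 0.142) therefore came from 1 library, and the lowest edgeR adjusted p of the 12 was 0.137.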

How the data were processed

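RNA-seq libraries of mycelium, 2 per sugar, were analysed from the tables deposited by the authors. The authors deposited, per gene, RSEM expected counts (estimated read numbers, not normalized) and FPKM values, which the authors had divided by gene length and sequencing depth. The submitters' processing notes name Bowtie2, HISAT and RSEM. No version, setting, genome build or use of strand is given in the sources used here. Genes absent from a table were taken as 0. Totals per library ranged from 7306517 to 8125982 expected counts after rounding, with 13993 to 14115 genes listed. The lengths listed beside FPKM equalled the summed coding parts of the deposited gene models in all 84363 entries, so UTRs did not enter them. Counts and FPKM of the named genes fit scaling to a somewhat shorter length, which raises FPKM of short models. Identifiers were looked up in a RefSeq gene table of another strain (12497 genes) and 0 matched.

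Of 14466 genes with a count, 12667 were kept by filterByExpr. Their rounded counts entered 1 model of all 6 libraries without covariates (edgeR 4.0.16 under R 4.3.3, with TMM, glmQLFit and glmQLFTest). Libraries of a group varied by a common biological coefficient of 0.2183, on 3 residual degrees of freedom. FPKM were tested with limma 3.58.1 on log2(FPKM + 1), for genes with at least 1 FPKM in 2 libraries, and fold changes on that scale understate the change of low genes. Adjusted p-values are Benjamini-Hochberg values over all genes tested, and each SE was derived from the fold change and its F statistic. Reads were taken as divided with similar genes when a count was not whole by more than 1e-06. Alternatives were DESeq2 1.42.0, other scalings and filters, only the 4 libraries, a replicate block, and leaving out genes or single libraries. The tests were run on simulated counts with 1 common spread for all genes and groups. This leaves out the wider spread between the xylose libraries, so nothing about their performance on these data is read from it. Members, lists and tests were chosen with earlier results of these data known. Genes named by identifier are the 2 higher and the 2 lower ones with the greatest difference in mean FPKM among called genes whose groups did not overlap in CPM and whose counts were whole. Sets of like structure, copies, runs and genes high in 1 library were chosen after their values were seen.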

Additional observations from a re-analysis of the deposited data

How the results depend on the processing

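Counts of calls depended on the fit. Among the 533 called genes, 0 changed sign in the 14 alternatives, an outcome largely fixed in advance since their groups did not overlap. The 533 called genes became 1091 with DESeq2, 191 with only the 4 libraries compared, and 148 to 1035 with a single library left out, where the spread of the remaining library of that sugar is taken from the other sugars. Higher genes (210) became 533, 60 and 26 to 544, and lower genes (323) became 558, 131 and 122 to 491. Calls with at least a 2-fold change (503) became 823, 191 and 148 to 966. The share called higher, 39.4%, was 28.9% with library size only and ranged from 17.6% to 52.6% without single libraries. Calls on FPKM (485) were 288 with a replicate block, 140 with only the 4 libraries and 96 to 769 without single libraries. Of the 533 genes, 527 were also called with DESeq2 and 190 with only the 4 libraries. The cause of these differences was not tested.

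Labels give both sugars the same replicate numbers, yet same-numbered libraries of xylose and cellobiose did not deviate together (correlation -0.14). With 2 libraries per sugar this cannot exclude a pairing smaller than the spread of the libraries. With the replicate block edgeR called 373 genes, 353 of them among the 533. By expected counts in place of FPKM, the higher genes held 1.8% on cellobiose (1.55% by FPKM) and the lower genes 5.37% (8.4%). For genes called by limma, the higher genes held 1.13% on cellobiose and 5.21% on xylose (6.34%). All 28 counts by class of gene model were over 1.5 times higher with DESeq2. With 2 libraries per sugar, a gene that was not called is not shown to be unchanged.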
